A study of Homo sapiens with 6 samples.

Results

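Cyclic GMP (cGMP) is a second messenger made from GTP by guanylate cyclases. Its genes were followed here in PaTu8988t cells, an established human pancreatic ductal adenocarcinoma (PDAC) cell line. The 10 genes described are *GUCY1A1*, *GUCY1A2*, *GUCY1B1*, *NOS1*, *NOS3*, *NPR2*, *PRKG1*, *PRKG2*, *PDE5A* and *PDE9A*, and each was found by its symbol among the 20347 genes of the deposited table. *GUCY1A1* was selected on its fold change between *SAMD1* KO and control cells in these libraries, a rise among the largest, with rank 2 by fold change among called genes with a mean of at least 50 normalized counts, between *PCDH7* and *SLC16A14*. Its difference between the groups is therefore given as a description, without a test. The other members were listed for their place in the pathway, with earlier results of these data known.

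RNA-seq was carried out on 3 replicates of control cells, made with an unspecific guide RNA, and on 3 clonally independent *SAMD1* KO clones made with CRISPR/Cas9. All cells were grown in high-glucose DMEM with fetal bovine serum, and no group received a further treatment. SAMD1 is a CpG island-binding repressor. Each KO library is 1 clone, and whether the control replicates came from separate cultures is not given in the sources used here. The p-values set the group difference against the spread between these libraries, with clones and control replicates pooled. An effect of deriving single clones was not tested.

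In the soluble branch of the pathway, nitric oxide from the nitric oxide synthases binds the heme of soluble guanylate cyclase, which works as a dimer of an alpha and a beta subunit. In the membrane branch, receptors such as NPR2 carry their own cyclase domain and answer to natriuretic peptides. cGMP then acts through the cGMP-dependent kinases PRKG1 and PRKG2 and is broken down by phosphodiesterases such as PDE5A and PDE9A. The pathway is best known for the relaxation of smooth muscle.

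*GUCY1A1* (ENSG00000164116.17, chr4:155666726-155737059, GRCh38) and *GUCY1B1* (ENSG00000061918.14, chr4:155758992-155807811) lie next to each other on the same strand, with 21932 bases between them. Promoter sequence is shown for both, since the neighbours differed sharply in level, and, at the first of its 3 start sites, for *PDE5A*, which was also called. The sequences are from RefSeq (GRCh38.p14), on the strand of the gene, 5′ to 3′. Each is the longest stretch within the 250 bases before an annotated start that lies outside every GENCODE 44 exon, and capitals mark GCGC, the motif that the study describes at CpG islands bound by SAMD1.
GUCY1A1, start site 1 (chr4:155666598-155666725): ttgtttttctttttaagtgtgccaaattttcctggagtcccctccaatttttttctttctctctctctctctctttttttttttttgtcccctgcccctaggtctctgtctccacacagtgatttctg
GUCY1A1, start site 2 (chr4:155667420-155667661): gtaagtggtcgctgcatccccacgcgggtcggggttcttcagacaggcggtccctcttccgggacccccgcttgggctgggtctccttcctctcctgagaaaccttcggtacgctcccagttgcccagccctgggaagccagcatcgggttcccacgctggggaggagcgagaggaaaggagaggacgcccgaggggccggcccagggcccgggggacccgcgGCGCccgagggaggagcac
GUCY1B1 (chr4:155758771-155758991): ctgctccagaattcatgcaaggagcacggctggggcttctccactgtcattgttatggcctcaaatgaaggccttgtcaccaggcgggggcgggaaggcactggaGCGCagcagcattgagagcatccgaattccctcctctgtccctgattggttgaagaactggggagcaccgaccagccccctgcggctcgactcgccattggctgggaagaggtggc
PDE5A, start site 1 (chr4:119628805-119629054): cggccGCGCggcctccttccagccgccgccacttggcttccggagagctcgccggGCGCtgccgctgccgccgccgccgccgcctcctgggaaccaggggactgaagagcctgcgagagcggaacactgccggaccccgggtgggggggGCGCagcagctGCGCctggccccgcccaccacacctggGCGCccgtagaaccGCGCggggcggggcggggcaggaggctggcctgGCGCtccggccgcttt

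Over whole windows of 300 bases (250 before and 50 after the start), GCGC, which reads the same on both strands, occurred 1 time at the first start site of *GUCY1A1* and 4 times at the second, counting overlapping copies. The stretches shown hold 0, 1, 1 and 7 copies in the order printed, and the remaining copies lie in the exonic parts of the windows. The second window of *GUCY1A1* held 29 CpG dinucleotides and the first held 5. The window of *GUCY1B1* held 2 copies of GCGC, and the 3 windows of *PDE5A* held 7, 0 and 8. Among all 35116 windows of this length, 57.2% held at least 1 copy, 27.4% at least 4 and 11.5% at least 7. The motif was thus common in promoters, and whether SAMD1 binds there was not analysed. Of the 10 genes, 9 had a promoter entry and *PDE9A* had none. The windows of *PRKG1*, which was also called higher, held 3 and 0 copies. The window of *NPR2*, which was lower in every clone and not called, held 4. *GUCY1A2*, with at most 2 reads in a library, had 5 copies, *PRKG2* had 2 and *NOS1* had 1. Both windows of *NOS3* held 0.

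Library totals ran from 35589477 to 45172216 recovered reads. *SAMD1* had 2231, 2383 and 2299 normalized counts (reads divided by a size factor for each library) in the control replicates and 874.1, 1082 and 824.8 in KO clones 1 to 3, so the transcript was lower in every library labelled KO, with reads remaining. Of the ductal and epithelial markers, 6 were expressed highly enough to be tested and *KRT19* had 0 reads in all libraries. The summed level of these markers was 63582 to 66793 in control and 68902 to 110418 in KO libraries, with *KRT7*, *KRT18* and *SOX9* called higher. Nearly all of this sum was *KRT8* (means of 34191 in control and 45097 in KO cells) and *KRT18* (29567 and 43002). *KRT18* had a limma adjusted p of 0.0598. *KRT8*, *EPCAM* and *MUC1* were not called, and the groups overlapped for *KRT8* and *EPCAM*. Smooth muscle markers (7 genes) summed to 1273 to 1310 and 610.1 to 946.9, with *TAGLN* called lower. *TAGLN* (848.4 ± 21.1 in control and 424.9 ± 162.4 in KO cells, SD, n = 3 each) and *ACTA2* (410.5 ± 6.37 and 346.2 ± 20.2) stood highest. *LMOD1* was at 21.3 ± 7.46 and 17.8 ± 4.3, and *CNN1* reached 9.9 at most. *MYH11*, *ACTG2* and *DES* reached 3.6 normalized counts at most in any library. Endothelial markers (5 genes) summed to 80.1 to 89.3 and 36.6 to 85.4. Of these, *CDH5* had 33.1 ± 4.28 in control and 10.6 ± 7.21 in KO cells. Every clone was below every control library, but *CDH5* was not called (limma adjusted p = 0.0748). *PECAM1* and *VWF* overlapped between the groups. Leukocyte and platelet markers (5 genes) summed to 456.9 to 499.9 and 381.0 to 455.1. In the latter list *CD68* had 358.8 ± 7.9 in control and 290.7 ± 43.5 in KO cells, and *ITGA2B* had 113.7 ± 28.7 and 133.6 ± 5.88. *PTPRC* reached 2.7 at most, and *CD3E* and *GP9* were at 0. The part of these shifts in the results below was not tested.

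Of the 10 members, 7 had a mean of at least 10 normalized counts over the 6 libraries and entered the limma fit of all 12773 such genes. *GUCY1A2*, *GUCY1B1* and *NOS1* did not. Genes were called where the fitted difference exceeded 0.5 on the log2 scale, in either direction, with p under 0.01 before adjustment. By this rule 7.85% of all tested genes were called, 5.77% higher and 2.08% lower. Among the 6 tested members other than *GUCY1A1*, *PRKG1*, *PDE5A* and *PDE9A* were called higher and 0 were called lower. With an adjusted p below 0.05 asked for instead, 2 of them, *PRKG1* and *PDE5A*, were called higher, against 5.34% higher and 1.87% lower among all tested genes. In 4 of these 6 every KO library lay above every control library, as in 19.2% of all tested genes, and in 1, *NPR2*, every KO library lay below, as in 18.6%.

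**Figure D1:**
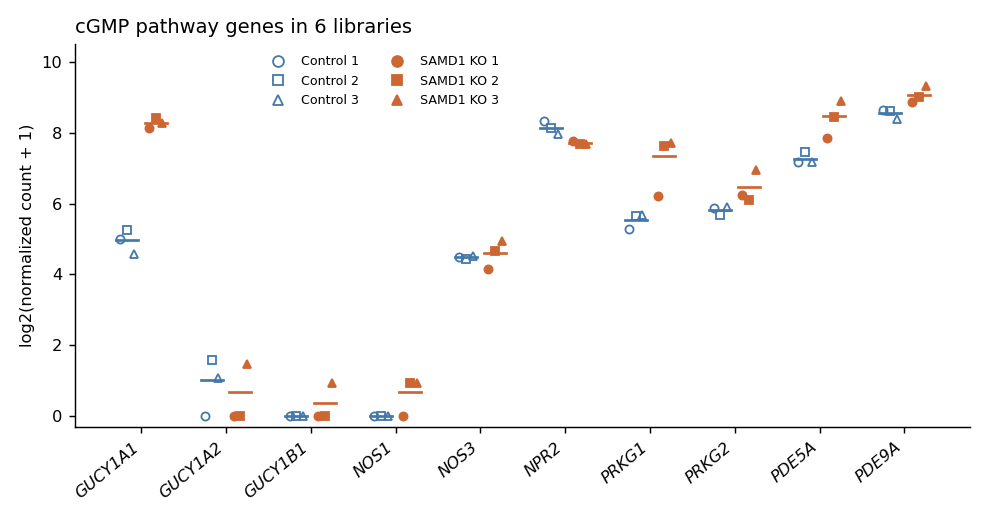
Normalized counts of the 10 genes on a log2(normalized count + 1) axis, with 1 point for each library and lines at the group means (means of normalized counts, then put on this axis). The 3 KO points of GUCY1A1, at 279.8 to 340.4 normalized counts, stand far above the control points at 22.9 to 37.2, while GUCY1A2, GUCY1B1 and NOS1 stay at or near 0 in both groups.

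*GUCY1A1*, which encodes the alpha 1 subunit of soluble guanylate cyclase, had 30.9, 37.2 and 22.9 normalized counts in the control replicates, from 27, 38 and 20 reads. In KO clones 1 to 3 it had 279.8, 340.4 and 307.6. The clones were alike and all far above control. The mean rose from 30.3 ± 7.15 to 309.3 ± 30.3 (SD, n = 3 each), a 10.2-fold difference and a log2 fold change of 3.33 ± 0.20 (standard error, SE). When single libraries were dropped, the log2 fold change lay between 3.15 and 3.49. Exons of 1 unnamed long noncoding gene on the same strand overlap those of *GUCY1A1* over 2612 bases, so its reads are not fully separate.

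*GUCY1B1*, which encodes the beta 1 subunit that pairs with either alpha subunit, had 0 reads in all 3 control libraries and in clones 1 and 2, and 1 read in clone 3. These are 0 of 112875541 reads in control and 1 of 130898671 in KO libraries. *GUCY1A2*, which encodes the alternative alpha 2 subunit (chr11:106674019-107018476), had 0, 2 and 1 reads in control and 0, 0 and 2 reads in the clones. The alpha 1 transcript was therefore the only 1 of the 3 subunit transcripts above 3 reads in any library, in control and in KO cells alike.

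To compare genes, normalized counts were divided by the length of the union of exons in kilobases (kb). *GUCY1A1* then stood at 2.90 ± 0.684 per kb in control and 29.6 ± 2.90 in KO cells (SD, n = 3 each). A floor of 3 reads was used where *GUCY1B1* had 0 reads, which covers counting error only. Per kb, *GUCY1A1* was at least 35.6-fold higher than *GUCY1B1* in clone 1 and at least 49.5-fold higher in clone 2. In clone 3, with its single read of *GUCY1B1*, the ratio was 129 (exact 95% Poisson interval 23.1 to 5090). In the control replicates the ratio was at least 2.51-fold to at least 4.78-fold, a much weaker bound because *GUCY1A1* itself was low there. A change of *GUCY1B1* between the groups was not detectable at this depth.

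**Figure D2:**
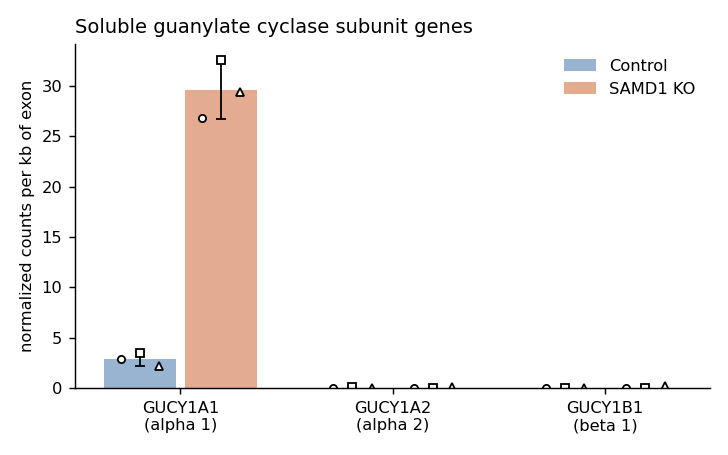
Normalized counts per kb of exon for the 3 subunit genes of soluble guanylate cyclase, with bars for group means, SD as error bars and 1 point for each library (circle, square and triangle for replicates 1 to 3). GUCY1A1 reaches 29.6 per kb in KO cells, and the bars of GUCY1A2 and GUCY1B1 are too low to be seen.

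Of the nitric oxide synthases, *NOS1*, the neuronal form (chr12:117208142-117452170), had 0 reads in the control libraries and 0, 1 and 1 reads in the clones. *NOS3*, the endothelial form (chr7:150991017-151014588), had 21.7, 20.5 and 21.8 normalized counts in control and 16.8, 24.2 and 29.7 in clones 1 to 3. Its groups overlapped, since clone 1 lay below and clones 2 and 3 above every control replicate. The log2 fold change came to 0.10 ± 0.28 SE (adjusted p = 0.838 in limma). *NOS3* shares 786 exonic bases with *ATG9B* on the opposite strand, and the strand setting of the counting is not given in the sources used here.

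*NPR2*, the membrane receptor cyclase for C-type natriuretic peptide (chr9:35791003-35809732), had 318.0, 277.9 and 249.7 normalized counts in control and 215.6, 205.6 and 205.1 in the clones. Every clone was below every control replicate, with little spread among the clones. The mean was 281.9 ± 34.3 in control and 208.8 ± 5.90 in KO cells (SD, n = 3 each), a change of −0.42 ± 0.12 SE on the log2 scale (adjusted p = 0.0615 in limma). This stayed short of the fold-change cut-off. Without control replicate 3 it passed both parts of the rule, at −0.51 (adjusted p = 0.106 in limma). *NPR2* shares 329 exonic bases with *SPAG8* on the opposite strand.

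*PRKG1*, which encodes cGMP-dependent kinase 1 (chr10:50990888-52298423), had 37.7, 48.9 and 50.4 normalized counts in control. In the clones it had 73.2, 197.8 and 208.7. All clones were above control, and clone 1 was far below the other clones. The mean rose 3.5-fold, from 45.7 ± 6.92 to 159.9 ± 75.3 (SD, n = 3 each), with a log2 fold change of 1.65 ± 0.40 SE (adjusted p = 0.0369 in limma). With single libraries left out the log2 fold change ran from 1.39 to 2.14, and the call was kept in 1 of 6 such fits, that without clone 1 (adjusted p = 0.00133). The adjusted p was 0.148, 0.117 and 0.115 without control replicates 1, 2 and 3, and 0.0779 and 0.0698 without clones 2 and 3. *PRKG1* shares 282 exonic bases with *PRKG1-AS1* on the opposite strand.

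*PRKG2*, which encodes cGMP-dependent kinase 2 (chr4:81087370-81215222), had 57.2, 49.9 and 58.4 normalized counts in control and 74.2, 67.4 and 122.3 in the clones. The groups did not overlap, and clone 3 stood apart from clones 1 and 2. The log2 fold change of 0.62 ± 0.25 SE (adjusted p = 0.149 in limma) did not pass. It was 0.36 without clone 3.

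Both phosphodiesterase members were called higher. *PDE5A*, which encodes the cGMP-specific enzyme inhibited by sildenafil (chr4:119494397-119628804), had 141.8, 175.1 and 143.2 normalized counts in control and 229.4, 347.3 and 473.1 in clones 1 to 3. Every clone was above every control replicate, and the clones spread widely. The mean rose 2.28-fold, from 153.4 ± 18.8 to 349.9 ± 121.9 (SD, n = 3 each), with a log2 fold change of 1.13 ± 0.25 SE (adjusted p = 0.0295 in limma). Without control replicate 1 or 3 the log2 fold change was 1.08 and the call was lost (adjusted p = 0.126 and 0.12 in limma). The call was kept without control replicate 2 or clone 2, though at limma adjusted p = 0.0835 and 0.0592. Without clones 1 and 3 the limma adjusted p was 0.00433 and 0.0364. *PDE5A* shares 883 exonic bases with an unnamed long noncoding gene on the opposite strand.

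*PDE9A*, which encodes a phosphodiesterase of high affinity for cGMP (chr21:42653621-42775509), had 399.2, 392.3 and 333.3 normalized counts in control and 466.7, 514.9 and 631.4 in the clones. The groups did not overlap, and clone 1 came closest to control. The mean rose 1.43-fold, from 375.0 ± 36.2 to 537.7 ± 84.7 (SD, n = 3 each). The fitted change of 0.51 ± 0.14 SE on the log2 scale (adjusted p = 0.0502 in limma) lay just past the cut-off, and the unadjusted p was 0.00655. With single libraries left out the call was kept only without clone 1 (0.61). The log2 fold change was 0.56, 0.55 and 0.43 without control replicates 1 to 3, and 0.54 and 0.39 without clones 2 and 3, with adjusted p from 0.0677 to 0.189 in limma.

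The clones did not change by like amounts in each gene. Clone 3 was the highest clone in 5 of the 6 tested members other than *GUCY1A1*, and clone 1 the lowest in 4. The shares of all tested genes with such an order were not computed, so these counts only describe the 6 genes. On the log2 scale the difference from the control mean in clones 1 to 3 was 0.68, 2.10 and 2.18 for *PRKG1* and 0.58, 1.18 and 1.63 for *PDE5A*. For *GUCY1A1* it was 3.19, 3.47 and 3.33, a narrow range beside those. The SD of log2 values among the clones was 0.84 for *PRKG1*, larger than in 97.5% of all tested genes, 0.52 for *PDE5A* (91.9%) and 0.46 for *PRKG2* (89.5%). It was 0.14 for *GUCY1A1* (46.5%) and 0.04 for *NPR2* (7.12%).

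**Figure D3:**
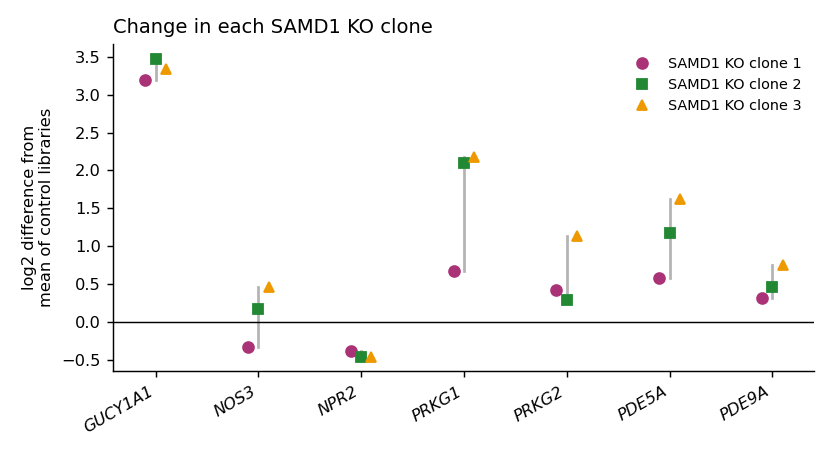
Log2 difference from the mean of the 3 control libraries in each SAMD1 KO clone, for the 7 tested members, with a line from the lowest to the highest clone. The clones of GUCY1A1 lie between 3.19 and 3.47, whereas those of PRKG1 run from 0.68 in clone 1 to 2.18 in clone 3.

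The order of the members by level per kb also differed between the groups. In control cells *PDE9A* led with 71.0 ± 6.86 normalized counts per kb, followed by *NPR2* with 33.7 ± 4.11, *PDE5A* with 16.0 ± 1.97 and *PRKG2* with 10.6 ± 0.882 (SD, n = 3 each). Below these, *NOS3* at 3.60 ± 0.117, *PRKG1* at 3.53 ± 0.535 and *GUCY1A1* at 2.90 ± 0.684 did not differ beyond their spread. This depended on the length used. With the longest transcript the control values were 4.89 ± 0.159 for *NOS3*, 6.57 ± 0.994 for *PRKG1* and 3.29 ± 0.777 for *GUCY1A1*, without overlap. In KO cells *PDE9A* led with 102 ± 16.0 per kb. *PDE5A* at 36.5 ± 12.7, *GUCY1A1* at 29.6 ± 2.90 and *NPR2* at 25.0 ± 0.707 followed, and of these *PDE5A* overlapped with both others. *PRKG2* at 16.8 ± 5.74 and *PRKG1* at 12.4 ± 5.82 overlapped as well, and *NOS3* stood at 3.97 ± 1.09, above *GUCY1B1*, *NOS1* and *GUCY1A2*, which were near 0. *GUCY1A1* thus moved from rank 7 to rank 3 of the 10, or to rank 4 when the longest transcript gave the length. Since *GUCY1A1* was chosen for its rise, this shift in rank is a description. In bulk RNA, fewer cells with a transcript and less transcript in each cell cannot be told apart.

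*GUCY1A1*, *GUCY1B1*, *PRKG2* and *PDE5A* all lie on chromosome 4. The 40 tested genes nearest to *GUCY1A1*, to *PRKG2* and to *PDE5A* had median log2 differences from control between −0.12 and 0.01 in the clones, and with the median fold change of these neighbours taken away the log2 fold changes were 3.34 for *GUCY1A1*, 0.63 for *PRKG2* and 1.23 for *PDE5A*. Of the 7 other genes in the table that start within 1 Mb of *GUCY1A1*, only *CTSO*, which encodes cathepsin O, was tested. It had 34.9 ± 3.68 normalized counts in control and 37.0 ± 8.15 in KO cells (log2 fold change 0.07, adjusted p = 0.875 in limma). *NPY2R*, *MAP9* and *ASIC5* had 0 reads in all libraries, and *RBM46* and *TDO2* were below the count minimum with at most 5.9 and 9.2 normalized counts.

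**Figure D4:**
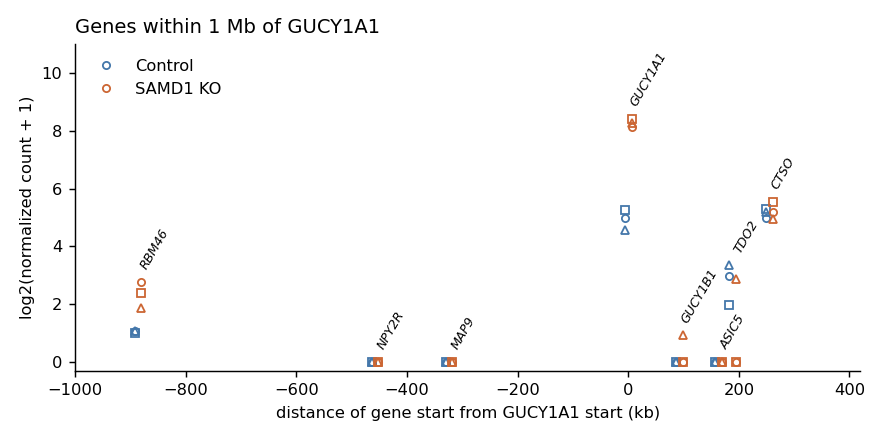
Log2(normalized count + 1) of the 8 genes of the table that start within 1 Mb of GUCY1A1, by distance of the gene start in kb, with 1 point for each library. The KO points lie clearly above the control points at GUCY1A1, while CTSO, the only other tested gene, has overlapping groups.

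The 5 tested genes with a mean of at least 50 normalized counts whose values over the 6 libraries were closest to those of *GUCY1A1* were *SLC16A14*, *PCDH7*, *FIBCD1*, *BMP2* and *ADCY5*. The measure was the root mean square difference of log2 values, each centred on its control mean, and it was 0.19, 0.31, 0.45, 0.55 and 0.56 for these genes among 11452 compared. They lie on chromosomes 2, 4, 9, 20 and 3. *ADCY5*, which encodes an adenylate cyclase, had 27.5, 47.9 and 30.9 normalized counts in control and 201.7, 255.7 and 188.0 in the clones. Since these genes were picked for their likeness, their values are a description.

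A wider set of 75 genes in 5 lists was set beside the members. The lists were nitric oxide synthesis and its regulators, membrane cyclases and peptide ligands, and other cGMP phosphodiesterases and exporters. The last 2 lists were cyclic nucleotide-gated (CNG) and HCN channels, and targets of cGMP-dependent kinase. Of these, 44 were tested, 6 were called higher (13.6%, against 5.77% of all tested genes) and 2 lower (4.55%, against 2.08%). Of the lower genes, *TRPC6* passed the count minimum only through its control libraries. In 8 of the 44 every KO library lay above every control library, as in 19.2% of all tested genes. In 11 every KO library lay below, as in 18.6%. The median log2 fold change over the 44 genes was 0.048 and over all tested genes −0.0059. The shares of all tested genes called higher and lower also apply beside the counts of each list below.

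Among the 5 tested genes for membrane cyclases and ligands, 2 were called higher and 0 lower, against 5.77% and 2.08% of all tested genes. *NPR1*, the receptor cyclase for atrial and B-type natriuretic peptides, had 176.2, 202.5 and 174.1 normalized counts in control and 591.3, 454.4 and 286.0 in clones 1 to 3, a log2 fold change of 1.21 ± 0.25 SE (adjusted p = 0.022 in limma). Its clones ran in the opposite order to those of *PRKG1* and *PDE5A*, highest in clone 1. *NPR3*, the receptor that clears these peptides and has no cyclase domain, went from 57.6 ± 2.89 to 103 ± 25.8 (log2 fold change 0.79, adjusted p = 0.0571 in limma), and its call was kept under 10 of 15 other settings. It was lost without any 1 of the control replicates and without clone 2 or clone 3, at log2 fold changes of 0.67 to 0.83. With an adjusted p below 0.05 asked for, a rule not among those 15 settings, *NPR3* was not called either. *GUCY2C*, the intestinal receptor cyclase, had 58.3 ± 3.53 and 62.7 ± 2.56 and was not called. Of the ligand genes, *NPPA*, which encodes atrial natriuretic peptide, was tested and not called, with 33.2 ± 10.9 normalized counts in control and 37.6 ± 5.65 in KO cells. *NPPB* had 7, 3 and 5 reads in control and 1 read in each clone, *NPPC* and *GUCA2A* had no more than 3 reads in a library, and *GUCA2B* had 0.

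Of the 6 tested other phosphodiesterases and exporters, *PDE2A*, which encodes a cGMP-stimulated phosphodiesterase, was called higher, with 120.1, 174.2 and 135.2 normalized counts in control and 334.2, 446.7 and 304.0 in the clones (log2 fold change 1.33 ± 0.19 SE, adjusted p = 0.00647 in limma). The groups were well apart. *ABCC4*, an exporter of cyclic nucleotides, went from 9568 ± 236 to 7561 ± 41.3 normalized counts (log2 fold change −0.34, adjusted p = 0.00478 in limma), which is short of the fold-change cut-off. *PDE6D*, which encodes the prenyl-binding delta subunit of the photoreceptor phosphodiesterase, went the other way by a like amount, from 1145 ± 41.7 to 1459 ± 139 (log2 fold change 0.35, adjusted p = 0.0395 in limma), and was not called either. Of 3 tested channel genes, *HCN2* was called higher, from 266 ± 27.0 to 483 ± 101 (log2 fold change 0.84, adjusted p = 0.0218 in limma). *HCN3* and *CNGA1*, the only tested gene of the CNG family, were not called.

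For nitric oxide synthesis, 1 of 15 tested genes was called. *ARG2*, which encodes arginase 2, an enzyme that uses the same substrate as the synthases, fell from 664 ± 19.8 to 377 ± 68.6 normalized counts (log2 fold change −0.83, adjusted p = 0.00869 in limma). *NOS2*, the inducible synthase, had at most 3 reads in a library.

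Among the 15 tested targets of the kinases, *FOXO1*, a forkhead transcription factor, and *ITPR1*, an IP3 receptor, were called higher and *TRPC6*, a cation channel, lower. *FOXO1* rose from 368 ± 8.25 to 587 ± 56.2 (log2 fold change 0.67) and *ITPR1* from 627 ± 18.8 to 941 ± 83.0 (0.58), with limma adjusted p = 0.00617 and 0.0067. With the median of its 40 neighbouring genes taken away, *ITPR1* was at 0.40 and no longer called. *TRPC6* had 24, 20 and 20 reads in control and 1, 1 and 4 reads in the clones, and its fitted log2 fold change ran from −3.88 to −1.50 with the setting. With means of 23.3 normalized counts in control and 1.82 in KO cells, it passed the count minimum only through control. Its call is therefore a description. *IRAG1*, which encodes the substrate that links the kinase to the IP3 receptor, had at most 2 reads in a library. *VASP*, the classical substrate, had 5264 ± 167 in control and 4994 ± 1338 in KO cells and was not called. *ENAH* was not called either, but its clones split, with 1799 ± 60.7 in control and 2819, 336.1 and 446.1 in clones 1 to 3. The SD of its log2 values among the clones, 1.66, was larger than in 99.7% of all tested genes.

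**Figure D5:**
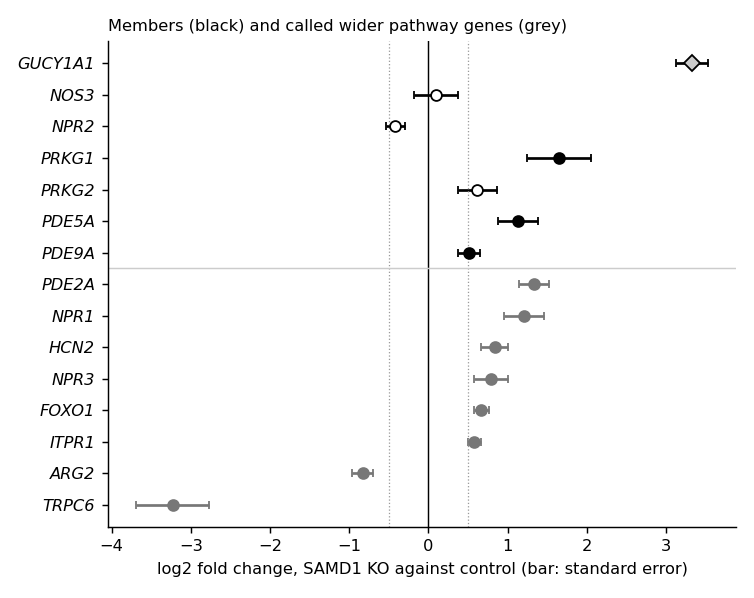
Fitted log2 fold change, KO over control, with its SE, for the 7 tested members (black) and the 8 called genes of the wider lists (grey), with dotted lines at the cut-off of 0.5. Filled circles were called, open circles were not, and the grey diamond is GUCY1A1, which was chosen for its rise (3.33) and is shown as a description. TRPC6 (−3.23) and ARG2 (−0.83) are the 2 genes to the left of the cut-off.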

How the data were processed

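RNA-seq of 3 replicates of control and 3 *SAMD1* KO clones of PaTu8988t cells was used. Libraries were made with a stranded mRNA kit. Alignment by the authors was done with RNA-STAR against GenCode 43 (hg38), followed by featureCounts and DESeq2 normalization. The deposited signal is a normalized count, a read count divided by 1 size factor for each library, so values lie on steps worth 1 read. Dividing by the step gave whole reads for 100% of the values of each library (within 0.001 reads), and these were used as recovered reads. No sample column was left unused (0 columns). A deposited table of the authors' own comparison (fold changes, p-values) was not used.

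Expression was compared with limma 3.58.1 (R 4.3.3, eBayes with trend, two-sided) on normalized counts after adding 1 and taking log2. The fit held the 12773 genes whose mean reached 10, and p-values were adjusted over all of them by Benjamini-Hochberg. The rule for calls follows the cut-off of the study's methods. Fold changes are on this scale, which understates the change of low genes. With 3 libraries in each group the smallest p of an exact permutation test is 0.1. Positions and exon lengths are from GENCODE 44 (GRCh38), found for 98.5% of tested genes. The members and gene lists were chosen with earlier results of these data known. Named genes are the members, all called genes of the wider lists or the 2 with the smallest p in a list with none, the 5 genes closest to *GUCY1A1*, tested genes within 1 Mb of it, *SAMD1* and markers, of which 1 is not reported here. The untested genes within 1 Mb, *GUCY2C*, *NPPC*, *GUCA2A*, *GUCA2B*, *NPPA*, *NPPB*, *ABCC4*, *PDE6D*, *CNGA1*, *HCN3*, *NOS2*, *IRAG1*, *VASP* and *ENAH* fall outside this rule and were named after their values were seen. As alternatives, the pseudocount was set to 0.1 or 10, the filter dropped or raised to a mean of 50, and values scaled by the 75th percentile. Further alternatives were edgeR 4.0.16 and DESeq2 1.42.0 on recovered reads, an adjusted p below 0.05 in the call, 1 library left out at a time, replicate number as a block, removal of the median of 40 neighbouring genes, and the longest transcript as length. The tests were run on simulated counts in which all genes and both groups had the same spread beyond counting noise. That setting does not cover genes whose KO clones differ widely, such as *PRKG1*. Counts at 35589477 to 45172216 reads give little counting noise except for low genes, where intervals and floors cover counting error only. Python 3.11.15 was used for summaries.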

Additional observations from a re-analysis of the deposited data

How the results depend on the processing

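Directions of the 6 tested members other than *GUCY1A1* held under each setting, except that *NOS3* (not called) changed sign to −0.08 without *SAMD1* KO clone 3. With 1 library left out in turn, log2 fold changes ran from 3.15 to 3.49 for *GUCY1A1*, −0.08 to 0.32 for *NOS3*, −0.51 to −0.33 for *NPR2*, 1.39 to 2.14 for *PRKG1*, 0.36 to 0.78 for *PRKG2*, 0.88 to 1.40 for *PDE5A* and 0.39 to 0.61 for *PDE9A*. These fits have 5 libraries. With a pseudocount of 10 the value of *GUCY1A1* was 3.0, as a larger pseudocount shrinks low genes. On all 6 libraries *PRKG1*, *PDE5A* and *PDE9A* were called by limma, edgeR and DESeq2. Same-numbered samples share only a number, and deviations of same-numbered libraries correlated at 0.039, 0.134 and 0.032. With the replicate block the call of *PDE9A* was lost (log2 fold change 0.51, limma adjusted p = 0.0983), and the calls of the other members were kept.

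For the wider lists, leaving out 1 library gave 5 to 6 genes higher, 2 to 3 lower and a median of 0.002 to 0.072. The median was 0.068 with 75th percentile scaling, 0.071 with DESeq2, 0.075 with edgeR and 0.091 without a filter, and the cause was not tested. Without a filter 4 genes were lower, and with a mean of at least 50 only 1, since *TRPC6* was then not tested. The rank of *GUCY1A1* per kb in KO cells was 4 with the longest transcript. Over all genes the leave-one-out counts ran from 568 to 862 higher and 180 to 370 lower. Depth limits *GUCY1A2*, *GUCY1B1* and *NOS1*, at 2 reads or fewer in a library.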
